A study of Neurospora crassa with 19 samples.

Results

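The genes described here are the DNA methyltransferase genes dim-2 (NCU02247) and rid (NCU02034) and the gene dmm-1 (NCU01554), which limits where DNA methylation lies, in the filamentous fungus Neurospora crassa. They were taken by locus number from the poly-A RNA count tables and are 3 of the 9730 genes counted. The series concerns dim-1 (NCU06484), described in its title as a chromatin remodeler, and holds 19 samples of several assays, of which the 2 poly-A RNA libraries are used. Both libraries came from strain N5801, which the labels describe as completely lacking dim-1, grown with shaking for 16 h at 32 °C in Vogel's minimal medium with 1.5% sucrose, and the tissue is given as germinated conidia (outgrowing asexual spores). No wild-type RNA is compared here, so the values are levels in this strain and show no effect of the deletion. The labels speak of duplicates but not of separate cultures, and differences between the libraries may therefore be technical.

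Neurospora methylates cytosines mainly in AT-rich relics of repeated DNA. In vegetative cells all known DNA methylation depends on DIM-2, which is brought to chromatin by heterochromatin protein HP1 bound to trimethylated lysine 9 of histone H3. RID is a relative of DIM-2 that is needed for repeat-induced point mutation, a process of the sexual phase in which duplicated DNA acquires C-to-T changes before meiosis. DMM-1, a protein with a JmjC domain, works with its partner DMM-2 to keep methylation from spreading out of heterochromatin into neighbouring genes.

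Reads of dim-1 itself were present in both libraries labelled as its deletion, with 258 counts in replicate 1 and 171 in replicate 2 (13.7 ± 1.64 CPM, that is, the gene's counts scaled to a common library total; SD, n = 2). At 14.9 and 12.5 CPM in replicates 1 and 2, dim-1 lay above rid, which had 2.59 and 1.98. Among genes with at least 10 counts in each library, 29.2% lay below dim-1 in replicate 1 and 28.1% in replicate 2. The span of dim-1 is long, at 7732 bases. Per kb of that span dim-1 had 1.92 CPM in replicate 1 and 1.62 in replicate 2, against 0.820 and 0.627 for rid. On this scale only 9.16% and 9.40% of these genes lay below dim-1. The counts of dim-1 stand beside a label of complete deletion, and gene totals do not settle how they relate. Where in the locus the reads aligned cannot be seen from gene totals, and the genotype was not tested. The libraries held 17364963 and 13632746 counts over genes, and a count of 0 would allow up to 0.173 CPM in replicate 1 and 0.220 CPM in replicate 2 (3 counts per library). Of the 9730 genes, 7775 were detected, meaning at least 10 counts in each library, and all 3 members were among them. The coefficient of variation beyond counting error, common to the genes tested, was 23.8% (edgeR). Genes of the sexual phase were low with exceptions: of 9 matched list genes, 7 were not detected, while the ascus development genes asd-1 and asd-4 had 96.6 ± 19.0 and 18.8 ± 0.640 CPM (SD, n = 2). Conidiation genes summed to 728 CPM in replicate 1 and 507 CPM in replicate 2, and 8 of the 9 matched genes were detected.

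The vegetative methyltransferase gene dim-2 stood near the middle of the detected genes by CPM, with almost equal values in both libraries. It had 540 counts, or 31.1 CPM (exact Poisson 95% interval 28.5 to 33.8), in replicate 1 and 428 counts, or 31.4 CPM (28.5 to 34.5), in replicate 2. The mean was 31.2 ± 0.211 CPM (SD, n = 2), with each library's value inside the other's interval. Without regard to gene length, 47.2% of detected genes lay below dim-2 in replicate 1 and 49.2% in replicate 2. These intervals, like the others given below, cover counting error only, because they are computed from read counts alone. The labels name no molecular identifiers, so reads copied from the same molecule cannot be told apart.

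The gene for the sexual-phase homolog, rid, was detected but low. It had 45 counts, or 2.59 CPM (95% interval 1.89 to 3.47), in replicate 1 and 27 counts, or 1.98 CPM (1.31 to 2.88), in replicate 2, with a mean of 2.29 ± 0.432 CPM (SD, n = 2). The intervals of the 2 libraries overlapped, and both lay above the limit that a count of 0 allows. A lower CPM was found in 6.33% of detected genes in replicate 1 and 5.83% in replicate 2. In RNA from a whole culture, a transcript in few cells and a low level in all cells cannot be told apart. In the RefSeq gene table the neighbouring locus NCU02035 carries NCU02034 as an older tag, while the locus now named NCU02034 carries the older tags NCU11205 and NCU11206. The count tables list NCU02034 and NCU02035 separately and hold none of the 226 tags that the gene table gives only as old ones, so the row was read as rid under the current naming.

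The gene dmm-1 stood near dim-2. It had 465 counts, or 26.8 CPM (95% interval 24.4 to 29.3), in replicate 1 and 324 counts, or 23.8 CPM (21.2 to 26.5), in replicate 2, with a mean of 25.3 ± 2.13 CPM (SD, n = 2). The intervals overlapped between the libraries. Its CPM exceeded that of 43.2% of detected genes in replicate 1 and 42.0% in replicate 2.

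**Figure D1:**
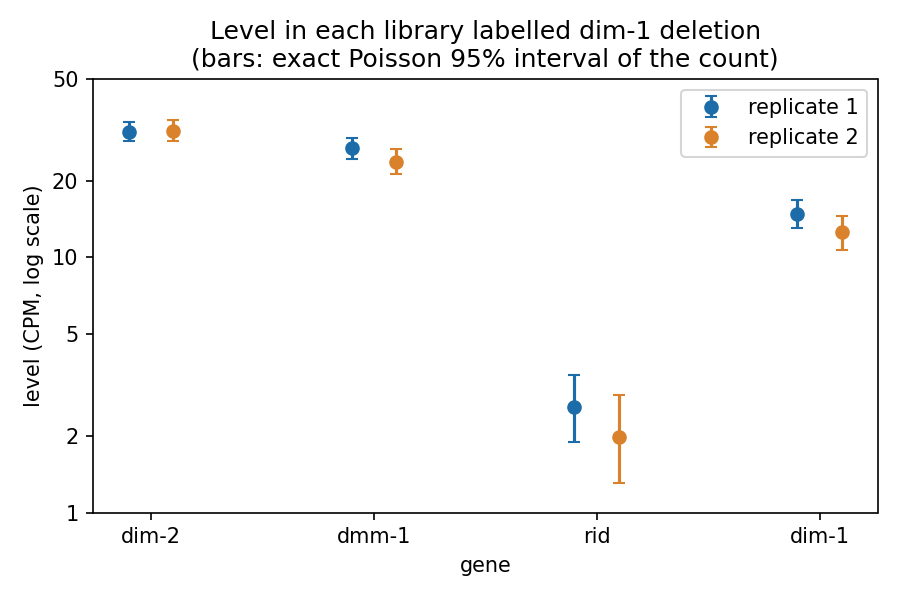
Level of dim-2, dmm-1, rid and the targeted gene dim-1 in each library, in CPM on a log axis, with exact Poisson 95% intervals of the counts as bars. Replicate 1 and replicate 2 overlap for each gene, dim-2 and dmm-1 lie between 23.8 and 31.4 CPM, and rid lies at 2.59 and 1.98 CPM.

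Levels of different genes were compared per length, as CPM per kb of gene span (the distance from gene start to gene end, introns included), within each library. On this scale dim-2 had 5.47 CPM per kb in replicate 1 and 5.52 in replicate 2, dmm-1 had 5.25 and 4.66, and rid had 0.820 and 0.627. The spans used were 5687 bases for dim-2, 5100 for dmm-1 and 3160 for rid. The level of dim-2 per kb was 6.67 times that of rid in replicate 1 (exact 95% interval 4.91 to 9.25) and 8.81 times in replicate 2 (5.97 to 13.5). For dmm-1 over rid the ratio was 6.40 (4.71 to 8.90) in replicate 1 and 7.44 (5.02 to 11.5) in replicate 2. The order of both genes above rid thus held in each library beyond counting error. Without division by length the mean ratios over rid were 13.9 for dim-2 and 11.2 for dmm-1, so their size rests on the spans. Between dim-2 and dmm-1 the ratio was 1.04 (0.918 to 1.18) in replicate 1, an interval that includes equal levels, and 1.18 (1.02 to 1.37) in replicate 2, an interval that does not.

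Per kb, all 3 genes stood below the median detected gene, which had 13.3 CPM per kb in replicate 1 and 12.5 in replicate 2. For dim-2, 25.9% and 29.4% of detected genes were lower per kb in replicates 1 and 2, and for dmm-1 25.0% and 25.8%. For rid the shares were 2.97% and 2.32%, so it was near the low end of what was detected.

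**Figure D2:**
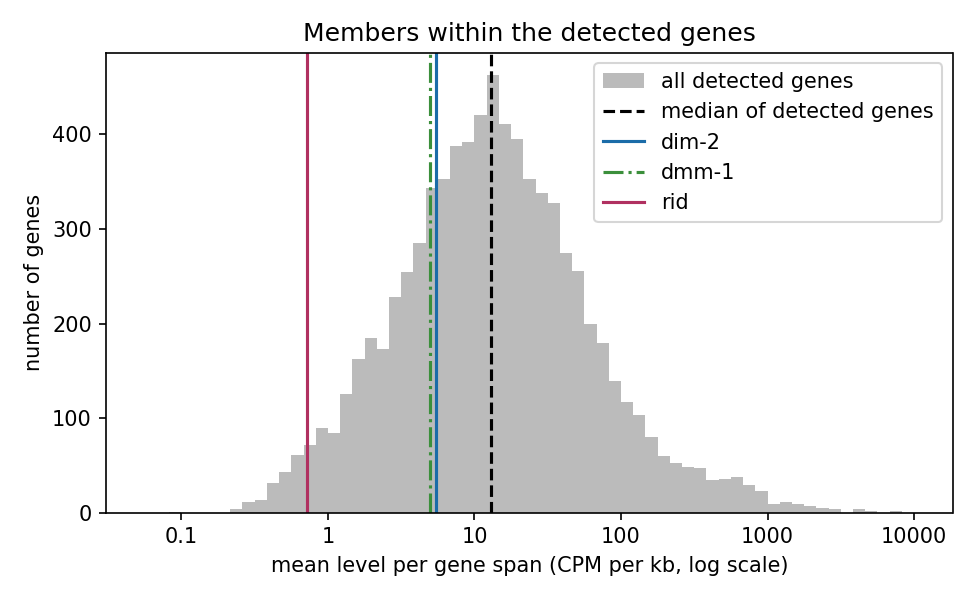
Mean level per gene span over both libraries (CPM per kb, log axis) of the detected genes, as a histogram of gene counts, with vertical lines at dim-2, dmm-1 and rid and a dashed line at the median of detected genes. The lines of dim-2 (5.49 CPM per kb) and dmm-1 (4.96) lie close together left of the median, and that of rid (0.723) lies in the left tail.

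The other genes of the DNA methylation pathway place these levels. Over 14 genes, the 3 members and 11 others, dim-2 had rank 10 per kb in both libraries, dmm-1 rank 11 in replicate 1 and 12 in replicate 2, and rid rank 14 in both. Upstream of DIM-2, trimethylation of histone H3 lysine 9 is laid down by DIM-5, whose gene dim-5 had 127 counts, or 4.34 CPM per kb, in replicate 1 and 59 counts, or 2.57 CPM per kb, in replicate 2. The level of dim-2 was 1.26 times that of dim-5 (exact 95% interval 1.04 to 1.54) in replicate 1 and 2.15 times (1.63 to 2.87) in replicate 2, intervals that do not overlap. The size of this ratio rests on the spans, introns included: in counts, without division by length, it was 4.25 in replicate 1 and 7.25 in replicate 2. DIM-7, which targets DIM-5 to chromatin, had a gene at 4.78 ± 0.126 CPM per kb (SD, n = 2), and its values, 4.87 and 4.69, lay within the range of dmm-1. The genes of the remaining parts of the DIM-5 complex were higher per kb than dim-2 in both libraries, at 6.99 ± 0.120 CPM per kb for dim-9, 13.5 ± 1.06 for dim-8 and 17.5 ± 0.344 for the cullin gene cul4.

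The gene of HP1, hpo, which links the histone mark to DIM-2, had 19.3 CPM per kb in replicate 1 and 22.3 in replicate 2, both above the values of dim-2. The genes of its deacetylase partners ranged over 8.64 ± 0.782 CPM per kb for cdp-2, 11.6 ± 2.81 for chap and 11.97 ± 0.833 for the deacetylase hda-1 (SD, n = 2). The highest of the 14 was dim-3, an importin gene needed for methylation, at 79.5 ± 3.19 CPM per kb. The median of the 11 other genes was 11.6 CPM per kb, against 13.01 for all detected genes.

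The partner of dmm-1 was the more abundant of the pair. The gene dmm-2 (NCU08289) had 624 counts, or 7.64 CPM per kb, in replicate 1 and 559 counts, or 8.71 CPM per kb, in replicate 2. The level of dmm-1 per kb was 0.688 of that of dmm-2 (exact 95% interval 0.609 to 0.777) in replicate 1 and 0.535 (0.465 to 0.614) in replicate 2. Both intervals lay below equal levels. They overlapped narrowly, with dmm-1 at its higher CPM in replicate 1 and dmm-2 in replicate 2.

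**Figure D3:**
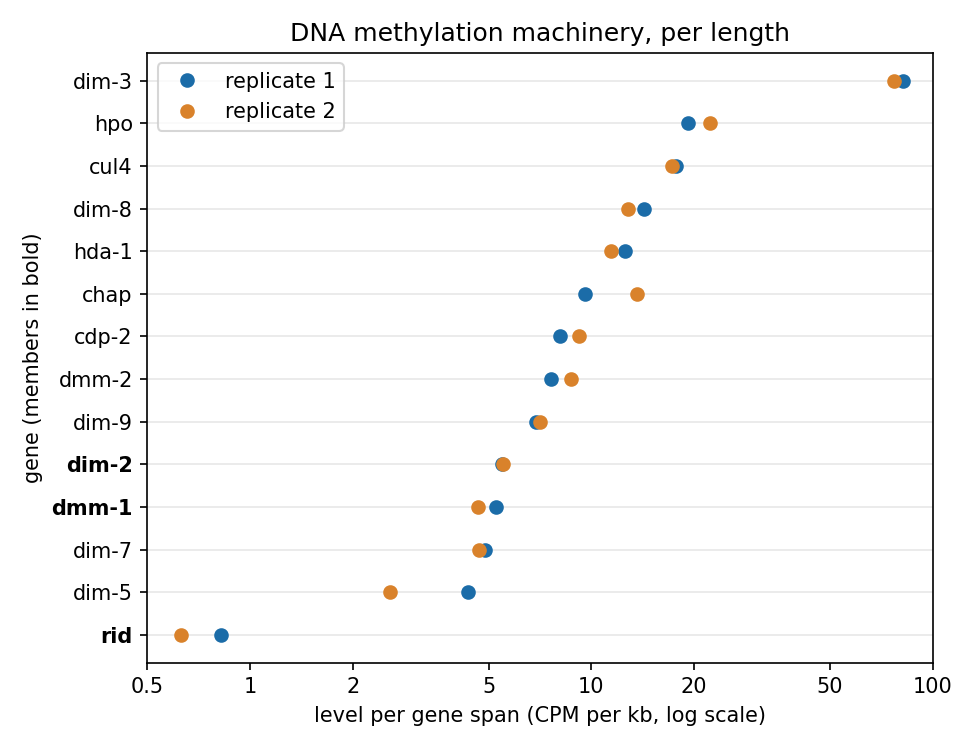
Level per gene span (CPM per kb, log axis) of the 14 genes of the DNA methylation pathway, a point per library, ordered by their mean, with the members in bold. The gene dim-3 stands at the top with 81.7 and 77.2, dim-2 and dmm-1 lie next to each other and to dim-7, and rid stands lowest at 0.820 and 0.627.

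Genes of the sexual phase give a scale for rid. The gene sad-1, an RNA-dependent RNA polymerase of meiotic silencing, had 3 counts in replicate 1 and 2 in replicate 2, and spo11, whose product makes the DNA breaks of meiosis, had 5 and 5. Per kb, rid was 23.6 times the level of sad-1 (exact 95% interval 7.58 to 119) in replicate 1 and 21.3 times (5.34 to 184) in replicate 2. Over spo11 the ratio was 5.25 (2.09 to 16.9) in replicate 1 and 3.15 (1.19 to 10.5) in replicate 2. Without division by length the mean ratios were 14.25 over sad-1 and 7.20 over spo11. The meiotic silencing genes sad-2, sad-3 and sms-2 had from 0 to 3 counts per library, and fmf-1 had 0 in both. The list gene nearest to rid was poi-2, with 3 counts, or 0.153 CPM per kb, in replicate 1 and 9 counts, or 0.584 CPM per kb, in replicate 2, where rid had 0.627. By contrast asd-4 and asd-1 exceeded rid per kb, at 5.24 ± 0.179 and 44.8 ± 8.83 CPM per kb (SD, n = 2). In each library rid was thus above 7 of the 9 list genes per kb and below 2, with poi-2 close to it in replicate 2.

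DNA methyltransferases use S-adenosylmethionine as methyl donor, and the 2 list genes with the highest levels of its supply far exceeded dim-2 and rid. The S-adenosylmethionine synthetase gene eth-1 had 142 CPM per kb in replicate 1 and 141 in replicate 2, and the methionine synthase gene met-8 had 293 and 346. The other 4 matched genes of the list, met-5, met-6, met-7 and met-10, ranged over 4.51 ± 0.0978 to 20.2 ± 2.76 CPM per kb (SD, n = 2). The lowest, met-6, was below dim-2 in both libraries and below dmm-1 in both.

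The ratio of replicate 1 over replicate 2 gives how far the genes differed between the 2 libraries, which may be technical. It was tested for each gene with an exact two-sided binomial test on reads after TMM scaling of the libraries (a trimmed mean of gene ratios), adjusted over the 7898 genes whose 2 libraries summed to 20 counts or more. Genes were called where the ratio was 2-fold or more and the adjusted p below 0.05. The test compares these 2 libraries, not conditions. Of the 7898 genes, 6.15% were called, 5.04% with replicate 1 higher and 1.11% with replicate 2 higher. This test allows for counting error only. By edgeR's exact test, which takes in spread beyond counting, 51 genes (0.646%) were called at the same thresholds, against 486 by the binomial test. That spread comes from these same libraries, so it contains the differences being tested. None of the 3 members was called, and at that background a count of 0 of 3 says little about them.

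For dim-2 the log2 ratio was −0.07 (exact 95% interval −0.26 to 0.12; adjusted p = 0.547, exact binomial test). For dmm-1 it was 0.12 (−0.09 to 0.33; adjusted p = 0.368, exact binomial test). For rid it was 0.32 (−0.39 to 1.08; adjusted p = 0.496, exact binomial test). The interval of rid reaches past 2-fold, so at 72 reads in all a difference of that size between the libraries could not be told from none, whereas for dim-2 and dmm-1 counting error alone leaves no room for 2-fold. Larger ratios in either direction were found in 86.0% of detected genes for dim-2, 77.7% for dmm-1 and 45.1% for rid.

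Among the 11 other pathway genes, 0 were called at 2-fold by the exact binomial test (and 0 by edgeR's exact test), and 5 had an adjusted p under 0.05 at a smaller ratio, against 51.2% of all genes tested that passed below 2-fold. The gene dim-5 was higher in replicate 1 (log2 ratio 0.69, adjusted p = 0.00393, exact binomial test). The genes hpo (−0.27), cdp-2 (−0.24), dmm-2 (−0.25) and chap (−0.56, adjusted p = 3.80e-07, exact binomial test) were higher in replicate 2. In edgeR's exact test none of these 5 passed (adjusted p = 1.0 for each), which says little, since ordinary ratios below 2-fold could hardly pass with a spread taken from the same difference. Of the 6 methyl donor genes, met-8 and met-10 had an adjusted p under 0.05 in the binomial test, both higher in replicate 2 and neither by 2-fold. Among all 7898 genes tested, 2300 had such a p at any ratio with replicate 2 higher. Of 8 conidiation genes tested, 2 were called, con-8 and con-10, both higher in replicate 1 by the exact binomial test, against 6.15% of all genes tested. At any ratio, 5 of the 8 had an adjusted p under 0.05 with replicate 1 higher, against 2227 of the 7898 genes tested. The gene eas alone had it with replicate 2 higher (log2 ratio −0.56). In edgeR's exact test con-10 was called (adjusted p = 0.0207) and con-8 was not (adjusted p = 0.814). The part of these genes in the ratios of the members was not tested.

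**Figure D4:**
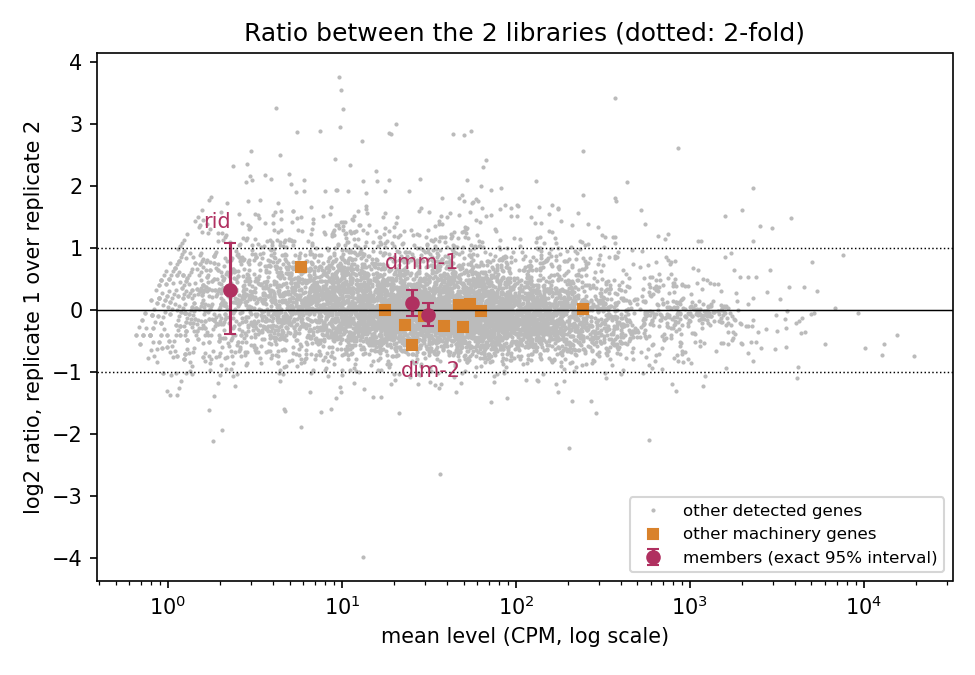
Log2 ratio of replicate 1 over replicate 2 after TMM scaling against mean level (CPM, log axis) for detected genes in grey, the 11 other pathway genes as squares and the 3 members as circles with exact 95% intervals. The members lie at −0.07, 0.12 and 0.32, inside the dotted lines at 2-fold, and the interval of rid alone crosses the upper line.

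The genes beside the members on the chromosome had levels of their own. By the gene table's order none of the 4 nearest genes overlapped dim-2. Of these, 3 were higher per kb than dim-2 and 1 was lower: hat-5 had 9.75 ± 0.119 CPM per kb, NCU02248 9.63 ± 0.912, stk-19 9.17 ± 0.279 and NCU02246 1.86 ± 0.585 (SD, n = 2). Around rid, the gene on one side, NCU02035, was as low, at 0.658 CPM per kb in replicate 1 and 0.639 in replicate 2, values inside the range of rid. On the other side NCU02033 had 10.6 ± 0.392 CPM per kb, and beyond these lay NCU02036 at 3.19 ± 0.600 and the glycoside hydrolase gene gh76-1 with 2 counts in each library.

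Around dmm-1 the contrast was larger. Its neighbour NCU01555 had 91.0 ± 18.8 CPM per kb, NCU01553 on the other side had 13.02 ± 0.991 and NCU01552 beyond it had 546 ± 3.42 (SD, n = 2), while NCU16567 had 0 counts in replicate 1 and 1 in replicate 2. None of these overlapped a member's span in the table, but some lay close. The gap was 20 bases between NCU01555 and dmm-1. Between NCU02033 and rid it was 129 bases, and NCU02033 had 616 and 459 counts against 45 and 27 for rid. The strand setting of the counting is not given in the sources used here, and reads past a gene's annotated end were not examined.

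**Figure D5:**
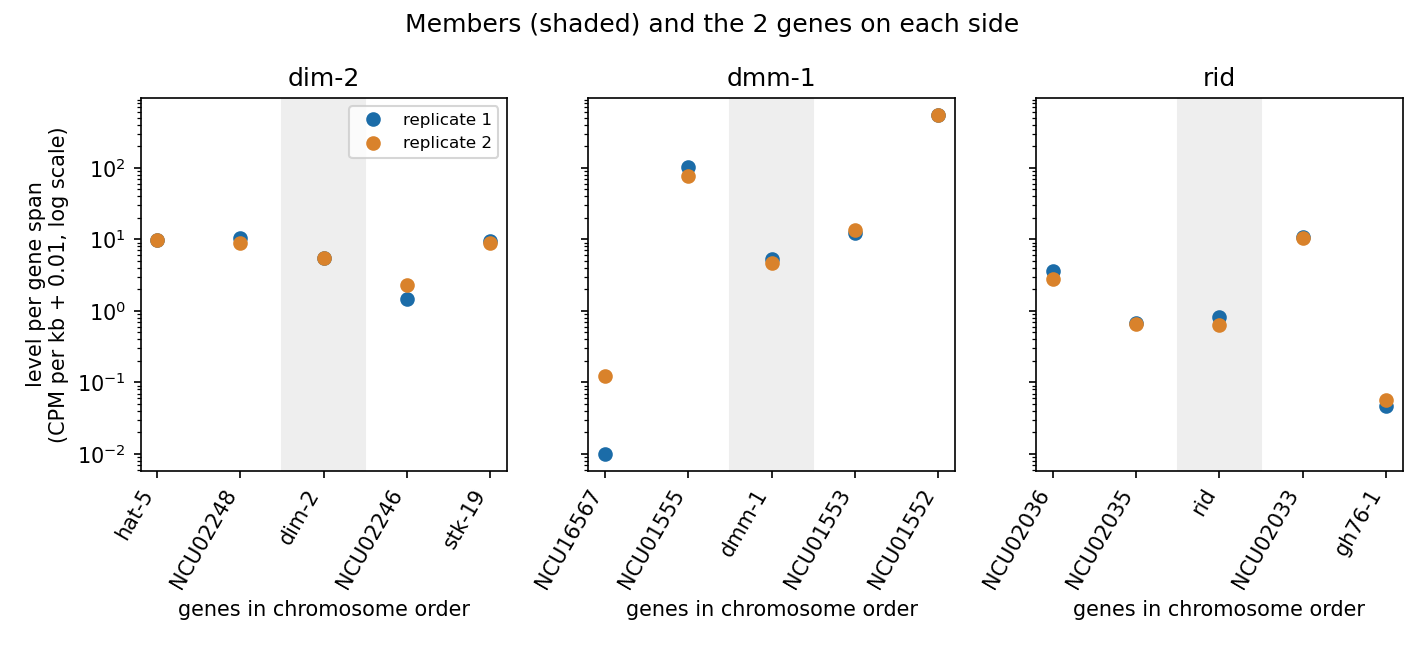
Level per gene span (CPM per kb with 0.01 added, log axis) of dim-2, dmm-1 and rid, shaded, and of the 2 genes on each side in chromosome order, a point per library. Above dim-2 lie hat-5, NCU02248 and stk-19, above dmm-1 lie NCU01555, NCU01553 and NCU01552, and rid lies level with NCU02035.

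The genes nearest to each member over both libraries, by the distance between log2(CPM + 1) values among genes with a symbol, were found for description. For dim-2 they were Rsp (distance 0.026), rpa-3 (0.034) and mob-2b (0.041). For dmm-1 they were vad-6 (0.024), the kinase gene stk-51 (0.043) and nst-2 (0.052). For rid they were the cellodextrin transporter gene cdt-2 (0.035), the L-amino acid oxidase gene lao (0.042) and the trehalase gene tre-1 (0.137), with 45 to 51 counts in replicate 1 and 28 in replicate 2 for each. With 2 libraries such closeness means a like level and no more.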

How the data were processed

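For each of the 2 poly-A RNA libraries, the deposited file gives raw read counts by gene, as whole numbers. Per the labels' protocols, mycelium was broken with glass beads in phenol, and stranded mRNA libraries were made from DNase-treated RNA. Per the submitters' processing notes, tools of the series include TopHat, HTSeq and DESeq, with no roles or versions. What build and annotation the counting used is not given in the sources used here. The 5 rows that name no gene, 10.2% of all rows' reads in replicate 1 and 9.19% in replicate 2, were left out.

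CPM, intervals and the exact binomial test with Benjamini-Hochberg adjustment were computed in Python 3.11.15 with scipy 1.17.1 and statsmodels 0.14.6. TMM scaling, the common dispersion and the alternative exact test came from edgeR 4.0.16, and other size factors from DESeq2 1.42.0. Log2 ratios have 0.5 counts added. The binomial test was checked on data simulated with counting error alone, which does not bear on spread between cultures. A quasi-likelihood test could not be fitted with a single group.

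Symbols, neighbours and gene spans came from a RefSeq table of assembly NC12, which held 9729 of the 9730 loci; no coordinates are printed. Coding lengths were not used here, so gene span replaced the planned coding length. Of 45 list entries, 35 were matched by symbol or locus. The conidiation list held fl and fluffy as separate entries, of which only fl was matched. Named genes were the members, dim-1, 2 genes on each side of a member, the 3 nearest in level and the list genes. The members and lists were chosen with earlier results of these data known. Alternatives covered the library total, the scaling, the added count, the filters, the length correction and the test.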

Additional observations from a re-analysis of the deposited data

How the results depend on the processing

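The members' log2 ratios kept their direction, and none was called, under total-count scaling, DESeq2 size factors, an added count of 2 and edgeR's exact test. In these binomial and edgeR tests adjusted p ran from 0.547 to 1.0 for dim-2, 0.375 to 1.0 for rid and 0.160 to 1.0 for dmm-1. The kept direction says little, since all 3 intervals include 0 and dim-2 was at −0.014 with total counts. The added count enters only the ratio, so it could not change p. A call needed a ratio of 2-fold or more, and the members' ratios lay below that in every setting, so none could be called. An adjusted p under 0.05 by edgeR's test was also hardly possible at such ratios. The number of genes called between the libraries, 486, was 500 with total counts, 486 with DESeq2 size factors and 507 without the filter on low counts, but 51 by edgeR's exact test, all 51 among the 486, with 47 higher in replicate 1 and 4 in replicate 2. With the reads that name no gene in the total, dim-2 was 28.2 and dmm-1 22.8 CPM, and without the 10 highest genes of either library they were 35.5 and 28.7 CPM, shifts common to all genes. Without division by length the ratio of dim-2 over rid was 13.9, of dmm-1 over rid 11.2, of dim-2 over dmm-1 1.24, of dim-2 over dim-5 5.75, of rid over sad-1 14.25 and of rid over spo11 7.20. The members' mean percentiles among detected genes, 27.6 for dim-2, 25.4 for dmm-1 and 2.64 for rid per kb, were 48.2, 42.6 and 6.08 without division by length and 37.2, 35.3 and 14.7 against all genes with a read. No paired analysis was possible because both libraries belong to a single group. No sample could be tested as an outlier at n = 2. Depth limits rid most, with 45 and 27 counts. The planned correction by coding length was not run.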
